A study of Homo sapiens with 6 samples.

Results

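GDF15 and 9 other genes of the integrated stress response were examined in ATAC-seq libraries of human naive embryonic stem (nES) cells grown with or without dm-αKG, a form of α-ketoglutarate that enters cells. Every row of the deposited count table that lay inside or within 30 kb of GDF15, ATF4, DDIT3, ASNS, TRIB3, CHAC1, SESN2, DDIT4, PHGDH or FGF21 (GENCODE, hg38) was taken, which gave 207 of 171517 peaks. The genes were chosen by the higher accessibility of the GDF15 promoter with dm-αKG in these same libraries, so the 22 peaks of GDF15 are described without a test. The 185 peaks of the other 9 genes were tested within the fit over all peaks. By gene, the windows held 24 peaks at ATF4, 18 at DDIT3, 5 at ASNS, 33 at TRIB3, 19 at CHAC1, 15 at SESN2, 20 at DDIT4, 29 at PHGDH and 22 at FGF21.

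The cells were H9, an established line of human embryonic stem cells, cultured in the naive medium tt2iLGö and separated from mouse feeder cells before treatment. The dm-αKG group (3 libraries) received 4 mM for 24 h, and the control group (3 libraries) carries the label DMSO and, in the study's methods, 0 mM. Both groups share the line, the medium and the experiment, so the data describe 1 line treated on 1 occasion. Counts in peaks lay between 13025674 and 26828622 per library, and replicate 3 had the smallest total of its group in both groups. In ATAC-seq a transposase cuts open chromatin, and reads at a site rise with its accessibility. In these bulk libraries, a site open in more cells and a site more open in each cell cannot be told apart. Of 10 markers of naive pluripotency, 9 had a promoter peak, and DPPA3 had none. Their median level lay at the 72.1th percentile of all promoter peaks, against 34.7 for primed markers, 45.7 for trophectoderm, 24.6 for primitive endoderm and 18.6 for primitive streak markers. Of 6 fibroblast markers, 2 had a promoter peak. No promoter of a trophectoderm, primitive endoderm, primitive streak or fibroblast marker passed the test below. Of the naive markers SUSD2 rose (log2 fold change 0.33) and KLF17 fell (-0.39), and of the primed markers DUSP6 fell (-0.30).

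In the integrated stress response, kinases that sense amino acid shortage, unfolded protein in the endoplasmic reticulum, viral RNA or lack of haem phosphorylate the translation factor eIF2. General protein synthesis then falls while the mRNA of the transcription factor ATF4 is translated. ATF4, with partners such as CHOP (the product of DDIT3) and C/EBP proteins, binds C/EBP-ATF response elements and switches on genes of amino acid synthesis and uptake, inhibitors of mTORC1, and the secreted factors GDF15 and FGF21. ATAC-seq reads the openness of the genes' control regions, and neither their mRNA nor the phosphorylation or translation steps were measured in these files.

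The sequences below are those of the peaks that the results turn on and of the C/EBP-ATF elements at the members' own starts. All are given 5′ to 3′ on the plus strand of hg38. Capitals mark the match: the 20 bases of a p53 consensus (up to 2 mismatches allowed), an NRF2 element (TGANTCAGC, which contains the AP-1 word TGANTCA), AP-1 (TGANTCA), CRE (TGACGTCA) or the C/EBP-ATF element (TGATGNAA), each sought on either strand within 200 bp centred on the peak. Peaks are named by the distance in bp of their centre from the start of the gene's MANE transcript, the reference transcript of each gene, with negative values upstream. The GDF15 -12151 peak (chr19:18373905-18374110) and -11598 peak (chr19:18374453-18374668) lie between genes, just before the first upstream start of GDF15. The ATF4 -875 sequence is the part of that peak outside the transcript (chr22:39519588-39519694), and ATF4 +535 is shown for its AP-1 word (chr22:39521064-39521092). SESN2 +729 (chr1:28260144-28260351) lies in an intron and holds no match. FGF21 +27092 is shown around its CRE (chr19:48782616-48782645). The C/EBP-ATF words lie at chr7:97872458-97872487 (ASNS, a gene on the minus strand), chr15:40953251-40953280 (CHAC1), chr10:72272905-72272934 and chr10:72272967-72272996 (DDIT4), chr20:382139-382168 (TRIB3) and chr1:119712786-119712815 (PHGDH).
GDF15 -12151: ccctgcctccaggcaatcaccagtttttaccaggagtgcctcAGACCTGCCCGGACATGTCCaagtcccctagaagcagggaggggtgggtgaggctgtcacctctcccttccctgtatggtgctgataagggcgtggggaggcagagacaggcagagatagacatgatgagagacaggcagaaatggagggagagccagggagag
GDF15 -11598: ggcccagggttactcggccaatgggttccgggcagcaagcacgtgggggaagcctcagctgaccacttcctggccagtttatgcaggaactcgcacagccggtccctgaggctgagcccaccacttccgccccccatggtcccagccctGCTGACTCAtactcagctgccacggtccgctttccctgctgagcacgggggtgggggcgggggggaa
ATF4 -875: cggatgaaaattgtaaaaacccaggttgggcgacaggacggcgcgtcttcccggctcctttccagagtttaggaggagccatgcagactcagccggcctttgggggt
ATF4 +535: cggcgcgggcgTGAGTCAagggcgggcgg
SESN2 +729: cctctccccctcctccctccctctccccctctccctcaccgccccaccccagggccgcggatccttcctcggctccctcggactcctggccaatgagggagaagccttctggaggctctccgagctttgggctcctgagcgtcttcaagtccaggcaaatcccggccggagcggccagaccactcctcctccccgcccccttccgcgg
FGF21 +27092: ccagccactagTGACGTCAtgggctttcag
ASNS -130: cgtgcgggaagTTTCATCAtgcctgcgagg
CHAC1 -175: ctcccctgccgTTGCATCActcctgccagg
DDIT4 -970, upstream match: ccccgcctgaaTGATGAAAcacgggatggc
DDIT4 -970, downstream match: gtcctcggtccTGATGCAAccgtctggatc
TRIB3 +1300: gcgcttgcgctTGATGTAAcccgccctcat
PHGDH +854: cgcccctcgtcTGATGCAAgactgctccgt

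At GDF15, a stress-induced cytokine of the TGFβ superfamily, higher accessibility with dm-αKG was seen at the promoter and at a pair of sites before the upstream start. The gene (ENSG00000130513.7) spans chr19:18374731-18389176 on the plus strand, and its MANE transcript starts at 18386158. The promoter peak (+9, chr19:18386059-18386276, over the first exon) had normalized counts of 299, 294 and 313 in the control libraries and 448, 445 and 439 with dm-αKG. All 3 treated values lay above all controls, and the means were 302 ± 10.0 and 444 ± 4.92 (SD, n = 3), which gives 0.56 (SE 0.09) as log2 fold change. A normalized count is the count scaled to the mean library size after TMM scaling.

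The difference was larger upstream, where the longer GDF15 transcripts start. The -11598 peak held 232, 195 and 238 in control and 445, 443 and 460 with dm-αKG. Treated libraries were close together and 2.04-fold the controls, a log2 fold change of 1.03 (SE 0.09) and the largest of the 22 peaks. The -12151 peak next to it held 264, 249 and 210 in control and 366, 360 and 376 with dm-αKG (log2 fold change 0.60, SE 0.10). It holds the p53 word shown above, and -11598 the word shared by NRF2 and AP-1. A p53 match occurs in 0.728% of all peaks, an NRF2 match in 1.47% and an AP-1 match in 6.33%, and a match describes only the letters in the window.

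Between the starts, the -5688 peak in an intron of the longer transcripts held 39.4, 37.8 and 24.3 in control and 67.4, 61.6 and 55.4 with dm-αKG (log2 fold change 0.85, SE 0.24). The -345 peak, just before the MANE start, differed little, with 34.7 ± 4.18 in control and 37.8 ± 5.12 with dm-αKG (log2 fold change 0.09, SE 0.27). In a coding exon, +2452 held 139, 122 and 120 in control and 199, 164 and 154 with dm-αKG (0.46, SE 0.14). At -21043, in an exon of the neighbour PGPEP1, counts were 180, 214 and 183 in control and 280, 290 and 216 with dm-αKG (0.45, SE 0.11), and this peak holds a C/EBP-ATF word.

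Of the 22 peaks, 8 had all treated values above all controls and 1 (+22182) had them below, where 15.5% and 16.9% of all peaks did so. The GDF15 promoter chose the window, so nothing is read from these counts. At the starts of the neighbour LRRC25 (+10908, +11184 and +11457) the groups overlapped in all 3 peaks, with log2 fold changes from 0.25 to 0.60. Summed over the window, counts were 2445, 2465 and 2421 in control and 3282, 3180 and 3000 with dm-αKG, 29.1% higher on average. The window limit itself was arbitrary. The outermost peak inside it on the upstream side had a log2 fold change of -0.04 and the next one outside 0.62, and downstream the values were 0.17 inside and 0.25 outside. Over the 14 alternative fits, the log2 fold change stayed between 0.55 and 0.58 at +9 and between 0.94 and 1.07 at -11598.

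**Figure D1:**
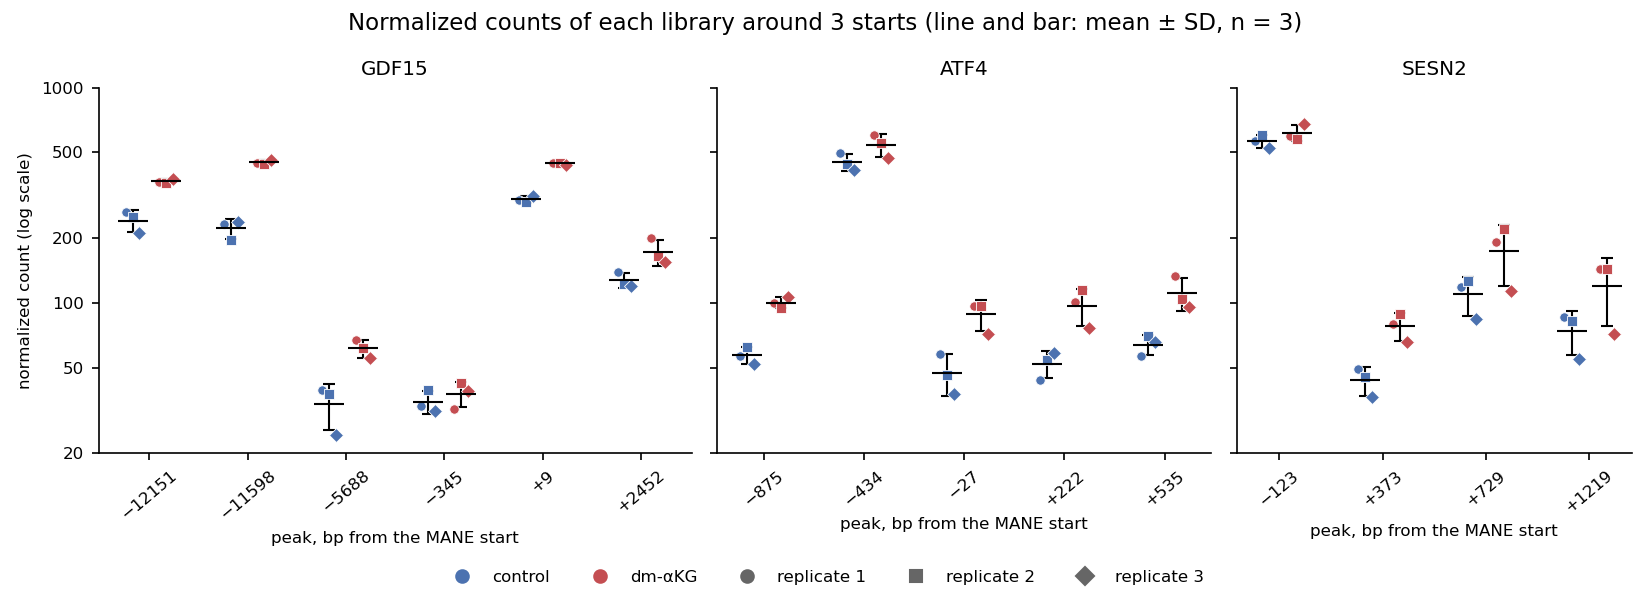
Normalized counts (log scale) of each library at named peaks of GDF15, ATF4 and SESN2, with the mean and SD of 3 libraries per group and a marker shape for each replicate number. At GDF15 -11598 the dm-αKG libraries lie between 443 and 460 and the controls between 195 and 238, whereas at SESN2 +1219 replicate 3 of the dm-αKG group (71.9) lies among the controls (54.7 to 85.9).

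The question for the other 9 genes was whether their control regions moved with that of GDF15. Peaks passed at a Benjamini-Hochberg adjusted p below 0.01 in edgeR's quasi-likelihood test over all 171517 peaks. Of the 185 peaks, 15 rose (8.11%, against 3.34% of all peaks) and 16 fell (8.65%, against 6.54%), and 154 did not pass. Together 31 passed (16.8%, against 9.88%). The shares are not of like peaks, since the median control count was 122.5 over the 185 peaks and 65.34 over all peaks. A change is easier to detect at higher counts, and the part of that in the shares was not tested. With a fold change above 2 also required, 1 rose (0.782% of all peaks did) and 4 fell (1.96%). The median log2 fold change was 0.08 over the 185 peaks and 0.01 over all peaks. The p-values measure the spread between these libraries, and the peaks of a gene share a locus and are not replicates of each other.

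By place, of the 32 peaks within 1 kb of a start of the gene itself, 6 rose and 0 fell (3.34% and 6.54% of all peaks did). Elsewhere inside the genes, 1 of 16 peaks rose and 3 fell. At the starts of neighbouring genes, 2 of 38 rose and 1 fell, and in the remaining 99 peaks, 6 rose and 12 fell. More rises than falls near starts were also seen over all genes, where 3.19% of the peaks between -100 and 100 bp of a MANE start rose and 1.52% fell, and 8.04% rose and 0.503% fell at 300 to 700 bp downstream. Those ranges are narrower than 1 kb on either side of any start, so they are not a like set for the 32 peaks. The difference between places was not tested. All 6 rises at own starts belonged to ATF4 (4 peaks) and SESN2 (2 peaks), and the 4 of ATF4 were listed only with dm-αKG. A peak enters the table because it was called in at least 1 group, and 8 of the 15 risen peaks were listed only with dm-αKG and 3 of the 16 fallen ones only in control. Among all passed peaks of the table, 29.3% of the risen and 27.7% of the fallen were listed in that way. The other 7 risen and 13 fallen peaks were in both lists. The p-values of peaks listed in 1 group only are not free of the way those peaks entered the table.

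**Figure D2:**
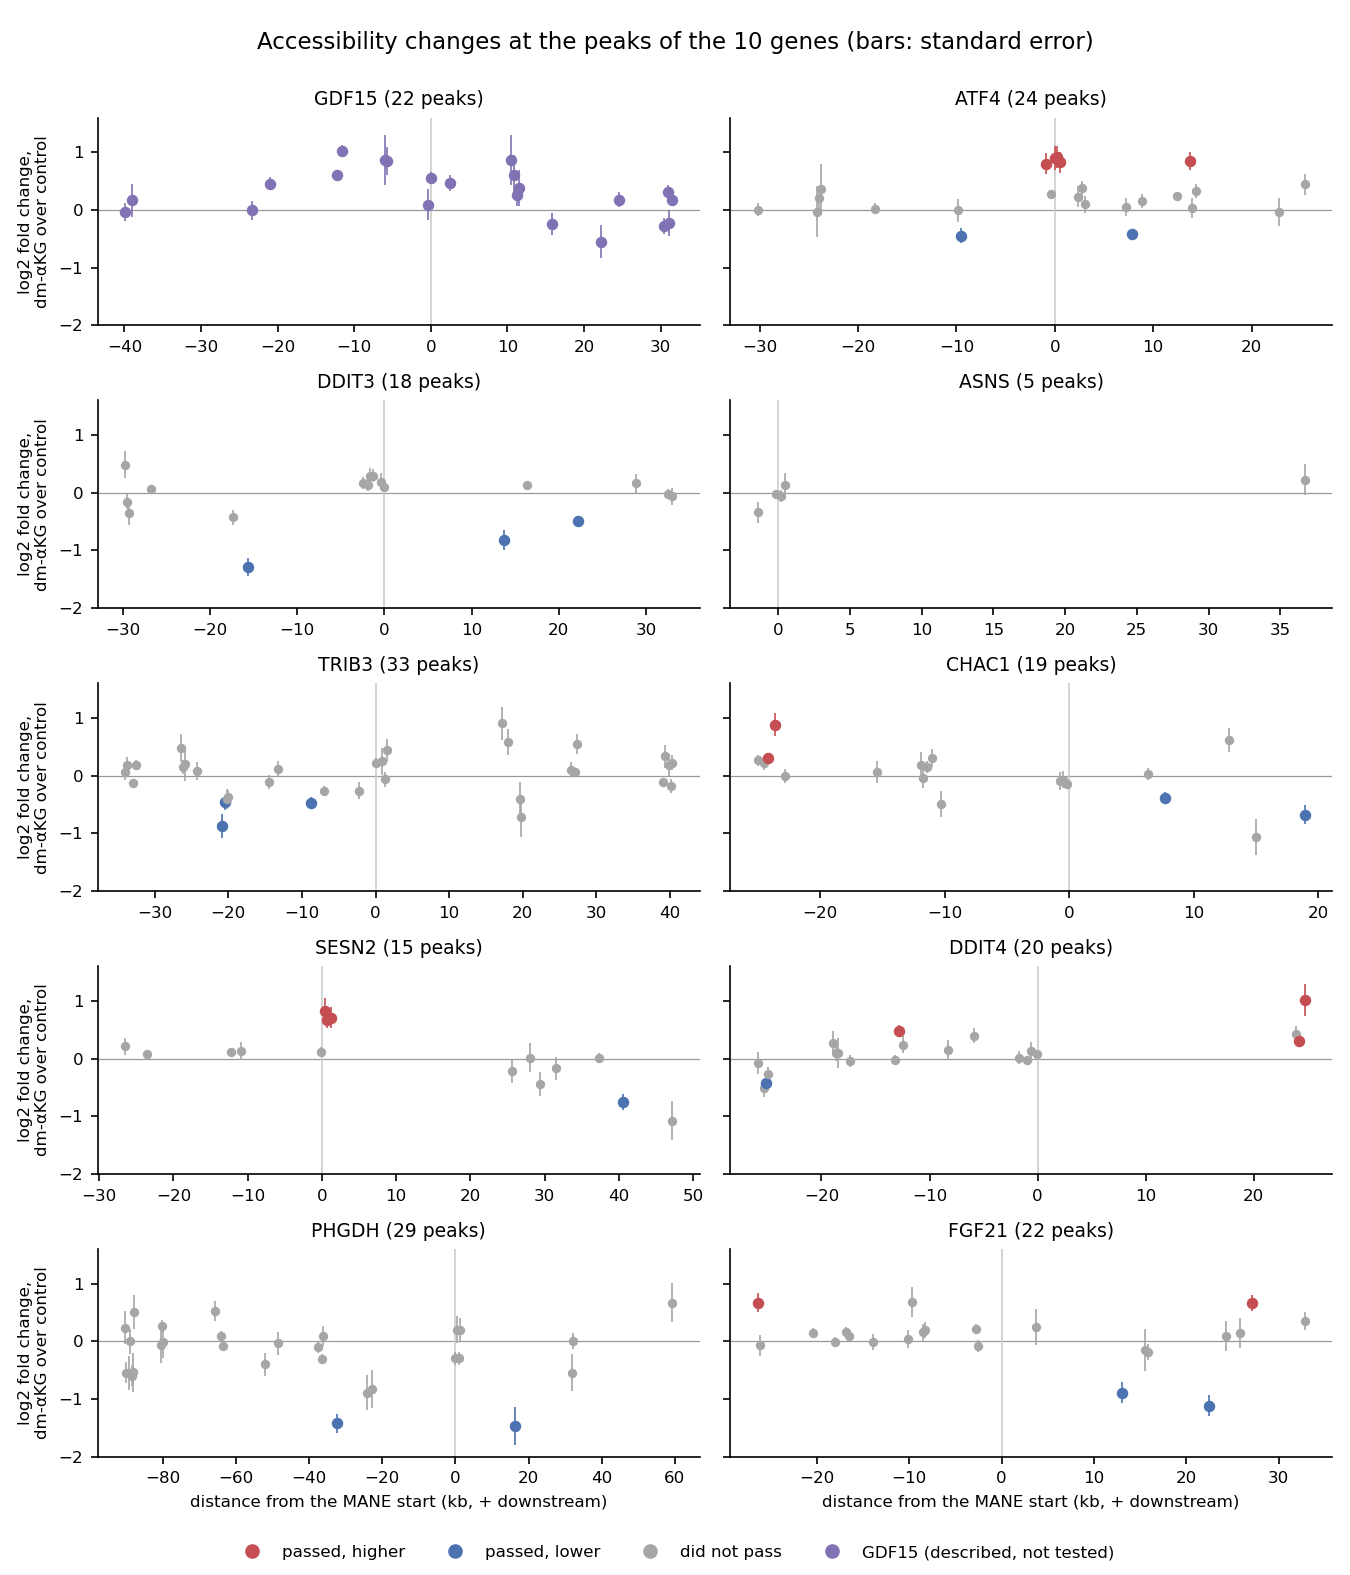
Log2 fold change (dm-αKG over control, bars: SE) of the 207 peaks against their distance in kb from the MANE start, with a panel per gene, coloured by the test for the 9 tested genes. The 4 risen peaks at the ATF4 start and the 3 at the SESN2 start stand together, while the falls at DDIT3, TRIB3, PHGDH and FGF21 lie away from the starts.

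ATF4 (ENSG00000128272.18, chr22:39519695-39522683, plus strand), the transcription factor that carries the response, had 5 risen and 2 fallen peaks among its 24. At its MANE start, 39520562, the strongest peak (-434) held 496, 443 and 415 in control and 599, 554 and 468 with dm-αKG. The groups overlapped there, and the peak did not pass (log2 fold change 0.27, SE 0.08, edgeR adjusted p = 0.0128). It passed in 6 of the 14 alternative fits, among them those that left out control replicate 1 or dm-αKG replicate 3, at log2 fold changes between 0.29 and 0.35.

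The weaker peaks around it rose. At -875, 8 bp from the outermost ATF4 start, counts were 56.4, 62.5 and 52.2 in control and 99.7, 94.9 and 106 with dm-αKG (log2 fold change 0.80, SE 0.19, adjusted p = 0.000842). At -27 they were 58.1, 46.0 and 37.6 in control and 96.8, 96.2 and 71.8 with dm-αKG (0.90, SE 0.20, adjusted p = 0.000546). No treated library overlapped a control at either peak.

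In an intron, +222 held 43.8, 54.2 and 58.3 in control and 100, 114 and 76.3 with dm-αKG (log2 fold change 0.92, SE 0.20, adjusted p = 0.000254). The +535 peak, with the AP-1 word, held 56.4, 69.9 and 65.6 in control and 133, 104 and 95.8 with dm-αKG (0.82, SE 0.18, adjusted p = 0.000343). All treated values again lay above the controls. These 4 peaks were listed only with dm-αKG, so they entered the table through the group in which they are high. Their p-values are not free of that entry and are not separate support for a rise. Of the treated libraries, replicate 3 was lowest in 3 of the 4 peaks. Without dm-αKG replicate 1, the -27 and +535 peaks no longer passed (log2 fold changes 0.82 and 0.65).

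Farther out, +13673 near the start of RPS19BP1 rose from 92.1 ± 14.03 to 166 ± 24.9 (log2 fold change 0.85, SE 0.15, adjusted p = 1.02e-05). The +7817 peak, with a C/EBP-ATF word, fell from 470 ± 13.0 to 349 ± 10.48 (-0.43, SE 0.09, adjusted p = 8.12e-05). In an intron of MIEF1, -9545 fell from 192 ± 3.21 to 142 ± 9.20 (-0.45, SE 0.13, adjusted p = 0.00853), a call lost in 10 of 14 alternative fits (-0.49 to -0.38). Those were DESeq2, total counts, upper quartile factors, loess offsets, the replicate block and the fits that left out any library other than dm-αKG replicate 3. Summed over the window, ATF4 counts were 11.5% higher with dm-αKG, with all treated libraries above the controls.

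SESN2 (ENSG00000130766.5, chr1:28259518-28282491, plus strand) encodes sestrin 2, a stress-induced leucine sensor that restrains mTORC1. Its main promoter peak (-123) held 563 ± 41.1 in control and 616 ± 53.8 with dm-αKG and did not pass (log2 fold change 0.12, SE 0.08, adjusted p = 0.284). The 3 peaks downstream of it rose. At +373, in a coding exon, counts were 49.2, 45.2 and 36.4 in control and 79.6, 88.5 and 65.9 with dm-αKG (0.83, SE 0.21, adjusted p = 0.0025), and the groups did not overlap.

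At +729, in the intron, counts were 119, 126 and 83.8 in control and 191, 219 and 114 with dm-αKG (log2 fold change 0.68, SE 0.15, adjusted p = 0.000576). At +1219 they were 85.9, 82.2 and 54.7 in control and 143, 144 and 71.8 with dm-αKG (0.70, SE 0.18, adjusted p = 0.00264). At both, replicate 3 was the lowest of its group in control and with dm-αKG, and its treated value lay among the controls. Replicate 3 was also the library of smallest total in each group, and the part of that in the result was not tested. All 3 calls were lost with DESeq2 (0.68 to 0.83) and without control replicate 3 (0.54 to 0.73), dm-αKG replicate 1 (0.54 to 0.82) or dm-αKG replicate 2 (0.51 to 0.74), and the call at +373 also without control replicate 2 (0.86). Toward MED18, +40553 fell from 197 ± 31.6 to 118 ± 5.70 (-0.75, SE 0.14, adjusted p = 1.61e-05), and the weak +47203 peak, with the largest value of the window, did not pass (-1.08, SE 0.33, adjusted p = 0.015).

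Peaks just downstream of a start were higher with dm-αKG across the genome. Of all peaks 300 to 700 bp past a MANE start, the median log2 fold change was 0.21 and 8.04% rose, and between -100 and 100 bp these values were 0.07 and 3.19%. These distances were chosen after the ATF4 and SESN2 values were seen, so the counts and percentiles of the listed genes are only a description. ATF4 +222 and +535 were also listed as peaks only with dm-αKG. Over 100 to 1300 bp downstream, 6.56% of the 17369 peaks rose. Of the 12 such peaks of the 9 genes, 5 rose (ATF4 +222 and +535 and SESN2 +373, +729 and +1219), and the 7 others, at ASNS, TRIB3 and PHGDH, did not pass. The log2 fold changes of ATF4 +222 and +535 and SESN2 +373 were above the 95th percentile of their distance (0.67 for 100 to 300 bp, 0.79 for 300 to 700 bp), and those of SESN2 +729 and +1219 were below it (0.71 for 700 to 1300 bp).

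**Figure D3:**
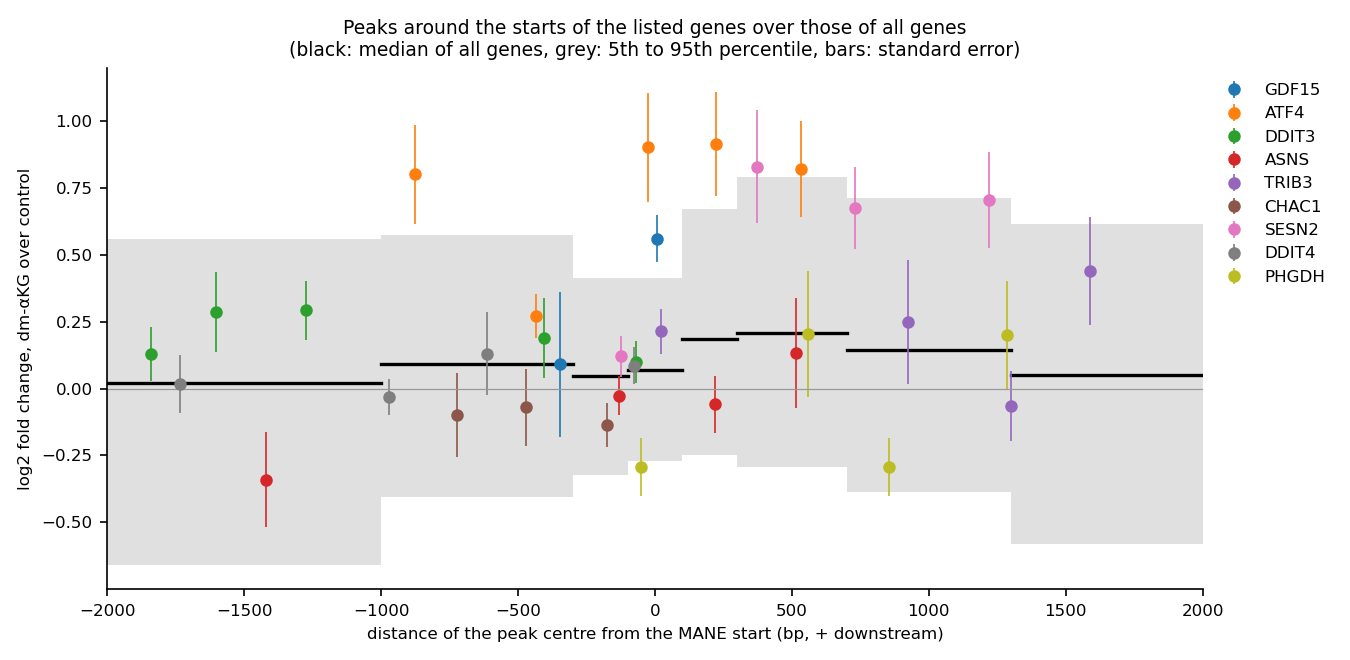
Log2 fold change (bars: SE) of the peaks within 2000 bp of the listed genes' MANE starts against the distance of the peak centre in bp, over the median (black) and the 5th to 95th percentile (grey) of the peaks of all genes. The medians step up from 0.07 at the start to 0.21 at 300 to 700 bp downstream, and ATF4 +222 (0.92) lies above its grey band while the PHGDH peak at +854 (-0.29) lies within its own.

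Each gene was also read by 1 promoter peak, the peak of highest mean count within 1 kb of its starts. Of these, 0 of 8 tested peaks passed, against 6.44% of the promoter peaks of all protein-coding genes. With 8 peaks, 0 cannot be told apart from that share. The choice leaves out weaker peaks at the starts that rose, such as ATF4 -27 (log2 fold change 0.90). At an unadjusted p below 0.05, edgeR gave 2 of the 8 (26.2% of all promoter peaks), and 0 passed by DESeq2. Their log2 fold changes lay between -0.14 (CHAC1) and 0.27 (ATF4). FGF21, a stress-induced endocrine factor, had no peak within 1 kb of its start. The peak chosen for PHGDH (-63623) lies at an upstream start that it shares with ZNF697, so its own MANE start is given below.

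Per 100 bp of peak, the control level was highest at ASNS (336 ± 24.4) and lowest at GDF15 (139 ± 4.58), the first of which lay at the 92.3th percentile of all promoter peaks. From high to low the order was ASNS, PHGDH (267 ± 12.1), DDIT3 (244 ± 11.1), CHAC1 (243 ± 9.44), DDIT4 (242 ± 3.78), ATF4 (220 ± 20.1), TRIB3 (202 ± 5.12), SESN2 (174 ± 12.7) and GDF15. The order depends on the peak chosen, which for PHGDH is -63623, at the start shared with ZNF697. At its MANE start the whole PHGDH peak (-52) held 262 ± 20.2 in control, less than the whole GDF15 peak (302 ± 10.0). Neighbours from PHGDH to TRIB3 overlapped in their control libraries, and the levels of ASNS, SESN2 and GDF15 did not overlap those next to them. With dm-αKG the GDF15 level was 204 ± 2.26 per 100 bp, above that of SESN2 (191 ± 16.6), though the libraries of the pair overlapped there.

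**Figure D4:**
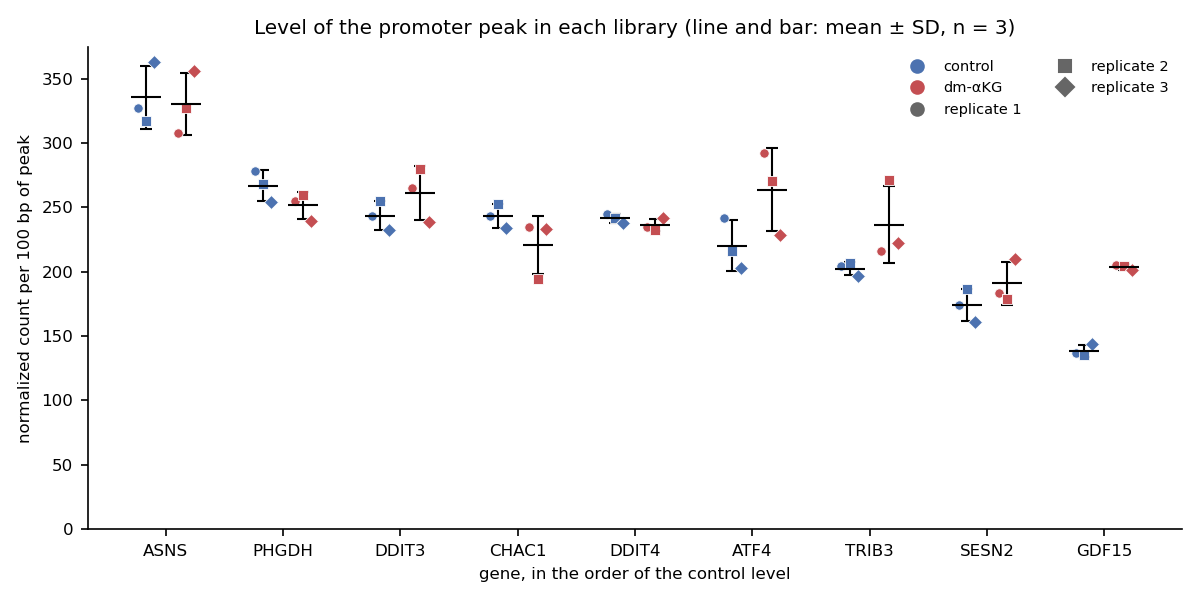
Normalized count per 100 bp of the promoter peak in each library (points), with the mean and SD of 3 libraries per group, for the 9 genes with such a peak in the order of the control level. GDF15 is lowest in control (139) and reaches 204 with dm-αKG, while ASNS stays highest (336 and 330). PHGDH is drawn by its -63623 peak, at a start shared with ZNF697, and not by the peak at its MANE start.

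ASNS, which makes asparagine from aspartate and is a standard target of ATF4, had 5 peaks and none passed. Its promoter peak (-130), with the C/EBP-ATF word, held 327, 317 and 363 per 100 bp in control and 308, 328 and 356 with dm-αKG. The groups overlapped, with a log2 fold change of -0.03 (SE 0.07, adjusted p = 0.842). In edgeR's test 0 of 5 ASNS peaks passed, and the largest change was -0.34 (SE 0.18) at -1419.

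DDIT3 encodes CHOP, an ATF4 partner linked to cell death. Its promoter peak (-69) did not pass, at 487 ± 22.2 in control and 522 ± 41.4 with dm-αKG (log2 fold change 0.10, SE 0.08, adjusted p = 0.405). The 3 passed peaks of its window all fell and all lay in neighbouring genes. At -15647 (chr12:57536062-57536261), in an intron of DCTN2 and 78 bp from a start of that gene, counts were 186, 201 and 151 in control and 86.8, 62.9 and 65.9 with dm-αKG. The groups were far apart, with a log2 fold change of -1.28 (SE 0.16, adjusted p = 3.18e-10). In introns of MARS1, a methionyl-tRNA synthetase, +22219 fell from 556 ± 9.72 to 400 ± 44.4 (-0.49, SE 0.08, adjusted p = 3.09e-06) and +13679 from 119 ± 15.1 to 69.7 ± 9.93 (-0.81, SE 0.17, adjusted p = 0.000275), the latter not without dm-αKG replicate 1 (-0.71). The +13679 peak was listed only in control, so its p-value is not free of that entry.

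TRIB3, a pseudokinase induced by ATF4 and CHOP that in turn restrains them, had 33 peaks, of which 3 fell. Its promoter peak (+22) held 415 ± 10.49 in control and 485 ± 61.5 with dm-αKG (log2 fold change 0.21, SE 0.08, adjusted p = 0.062). In an intron of a longer transcript, -8810 (with a C/EBP-ATF word) fell from 306 ± 9.68 to 224 ± 33.7 (-0.47, SE 0.11, adjusted p = 0.000582), but not without dm-αKG replicate 1 (-0.33). Farther upstream, -20843 fell from 85.3 ± 20.4 to 46.5 ± 11.4 (-0.87, SE 0.21, adjusted p = 0.00121), which was lost with DESeq2 (-0.87) and without control replicate 2 (-0.65) or dm-αKG replicate 2 (-0.70). Next to it -20533, with a p53 word, fell from 209 ± 29.2 to 153 ± 5.91 (-0.46, SE 0.13, adjusted p = 0.00481). This call was lost with DESeq2 and without control replicate 1 or 2 or dm-αKG replicate 1 or 2 (-0.48 to -0.36). The largest value of the window was at the weak +17224 peak, with 16.1, 25.5 and 30.4 in control and 52.4, 52.6 and 24.0 with dm-αKG, which overlapped and did not pass (0.90, SE 0.29, adjusted p = 0.0207).

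CHAC1, which breaks down glutathione and is induced late in the response, had 19 peaks. Its promoter peak (-175), with a C/EBP-ATF word, held 489 ± 18.97 in control and 444 ± 45.4 with dm-αKG and did not pass (log2 fold change -0.14, SE 0.08, adjusted p = 0.252). Both rises in its window lay at DLL4, a Notch ligand gene. At -23634, in an intron of DLL4, counts were 48.3, 49.3 and 57.1 in control and 104, 91.1 and 85.3 with dm-αKG (0.88, SE 0.19, adjusted p = 0.000384). The groups did not overlap, but the peak did not pass without dm-αKG replicate 1 (0.79). It was listed only with dm-αKG, so its p-value is not free of that entry. The DLL4 start peak (-24225) rose by less (0.30, SE 0.09, adjusted p = 0.00945) and was lost with DESeq2, the count minimum of 10, the replicate block, and without any library other than dm-αKG replicate 3 (0.25 to 0.34). Downstream, +7673 (-0.39, SE 0.11, adjusted p = 0.00661) and +18949 (-0.68, SE 0.17, adjusted p = 0.00161) fell. The first was lost with DESeq2, loess offsets, and without any library but dm-αKG replicate 3 (-0.43 to -0.33) and the second without control replicate 2 or dm-αKG replicate 2 (-0.66 and -0.65). The largest value was -1.06 (SE 0.32) at the weak +15008 peak, which did not pass (adjusted p = 0.0113).

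DDIT4, or REDD1, an inhibitor of mTORC1 induced by stress and low oxygen, had 20 peaks. Both start peaks, -970 with its 2 C/EBP-ATF words (874 ± 13.7 in control and 856 ± 17.6 with dm-αKG) and -77 (716 ± 23.5 and 762 ± 26.7), did not pass, at log2 fold changes of -0.03 and 0.09. Distal sites between genes rose. At -12848 counts were 205, 261 and 196 in control and 316, 310 and 304 with dm-αKG (0.48, SE 0.10, adjusted p = 0.000359), with no overlap. At +24702 they were 16.99, 25.5 and 34.0 in control and 47.3, 42.3 and 64.4 with dm-αKG (1.02, SE 0.28, adjusted p = 0.00507), the only rise above 2-fold among the 9 genes.

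This small peak lost its call with DESeq2 (1.02) and without control replicate 1 (0.79) or 2 (1.04) or dm-αKG replicate 1 (1.08) or 3 (0.85). The stronger +24197 beside it rose from 462 ± 40.9 to 564 ± 36.0 (0.30, SE 0.08, adjusted p = 0.00311), which was lost with DESeq2 and without control replicate 1 or 2 or dm-αKG replicate 1 (0.25 to 0.30). At -25105 accessibility fell from 212 ± 19.1 to 157 ± 9.63 (-0.43, SE 0.12, adjusted p = 0.00868), a call lost in 9 of 14 alternative fits (-0.47 to -0.36). Those were DESeq2, total counts, upper quartile factors, loess offsets and the fits that left out any library other than control replicate 3.

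PHGDH, the enzyme that opens serine synthesis from glycolysis, had 29 peaks, of which 2 fell and 0 rose. At its MANE start the -52 peak held 262 ± 20.2 in control and 215 ± 14.2 with dm-αKG (log2 fold change -0.29, SE 0.11, adjusted p = 0.0494), and +854 was like it (-0.29, SE 0.11, adjusted p = 0.0476), so neither passed. At -32512 (chr1:119679323-119679522), in an intron of a longer transcript, counts were 155, 192 and 142 in control and 51.6, 66.7 and 70.4 with dm-αKG (-1.42, SE 0.17, adjusted p = 1.11e-10). At +16273 (chr1:119728108-119728307), in an intron of the MANE transcript, they were 42.0, 41.1 and 30.4 in control and 13.6, 15.4 and 12.0 with dm-αKG (-1.47, SE 0.33, adjusted p = 0.000607). Both separated fully by group and were listed as peaks only in control, so their p-values are not free of that entry. Summed over the window, PHGDH counts were 3685, 3682 and 3723 in control and 3280, 3357 and 3405 with dm-αKG, a change of -9.44%.

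FGF21 had 22 peaks within its window, 2 risen and 2 fallen, none of them within 10 kb of its start. At +22407, toward BCAT2, counts were 122, 129 and 137 in control and 68.1, 69.3 and 35.9 with dm-αKG (log2 fold change -1.11, SE 0.18, adjusted p = 1.29e-06). At +13014 accessibility fell from 101 ± 2.01 to 54.0 ± 6.80 (-0.89, SE 0.19, adjusted p = 0.000244). The risen +27092, with the CRE word shown above, went from 110 ± 7.54 to 175 ± 21.2 (0.66, SE 0.14, adjusted p = 0.000301), but not without dm-αKG replicate 2 (0.56). The other CRE word of the window lay at -8552, in a peak that did not pass (0.16). In a coding exon of RASIP1, -26353 rose from 72.4 ± 6.55 to 116 ± 7.70 (0.67, SE 0.17, adjusted p = 0.0024), a call lost with DESeq2 and without control replicate 1 or 3 or dm-αKG replicate 1 or 2 (0.62 to 0.68).

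Across the 10 windows the summed counts of the remaining genes moved by less. They were 5.70% higher at SESN2 and 5.33% higher at DDIT4, with all treated libraries above the controls, and the change was -2.59% at DDIT3, with all below. At ASNS (-2.62%), TRIB3 (-2.46%), CHAC1 (2.63%) and FGF21 (5.57%) the groups overlapped. The direction turned with the window at DDIT3 and CHAC1, where the log2 ratio within 10 kb was 0.11 and -0.11. The sums weigh strong peaks most and carry no test. How often the sums of other genes' windows separate by group was not counted, so the separations are only a description.

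The wider pathway was read from the promoter peaks of 96 genes in 8 lists, all of which had such a peak. By edgeR's test 0 rose and 2 fell (3.67% and 2.78% of all promoter peaks did), and DESeq2 gave 0 and 1. At an unadjusted p below 0.05, 13 were higher and 6 lower (17.4% and 8.75% of all promoter peaks were), neither of which is above the background share. Their median log2 fold change was 0.02, against 0.05 for all promoter peaks. PCK2, the mitochondrial enzyme that makes phosphoenolpyruvate and an ATF4 target, fell from 738, 756 and 747 in control to 546, 550 and 524 with dm-αKG. Its groups lay far apart, with a log2 fold change of -0.47 (SE 0.07, adjusted p = 4.8e-07). TFEB, a transcription factor of lysosome genes, fell from 841 ± 80.3 to 700 ± 22.3 (-0.26, SE 0.07, adjusted p = 0.00431), a call lost with DESeq2 (-0.26) and without control replicate 1 (-0.27) or 3 (-0.19) or dm-αKG replicate 1 (-0.23) or 2 (-0.26).

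The promoters of the eIF2 kinases did not pass, with log2 fold changes of 0.14 for EIF2AK1 (HRI, which senses haem), -0.03 for EIF2AK2 (PKR, viral RNA), 0.06 for EIF2AK3 (PERK, unfolded protein) and -0.04 for EIF2AK4 (GCN2, amino acids). The list medians ran from -0.04 for amino acid and folate enzymes to 0.11 for the tRNA synthetases. In the list of the unfolded protein response, 5 of 16 promoters were higher at an unadjusted p below 0.05 (17.4% of all promoter peaks were), among them XBP1 (0.18), ERN1 (0.19) and CALR (0.18), and 0 passed. The largest values that did not pass were 0.33 at SHMT2 (adjusted p = 0.0838) and -0.33 at SLC7A3 (adjusted p = 0.19).

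**Figure D5:**
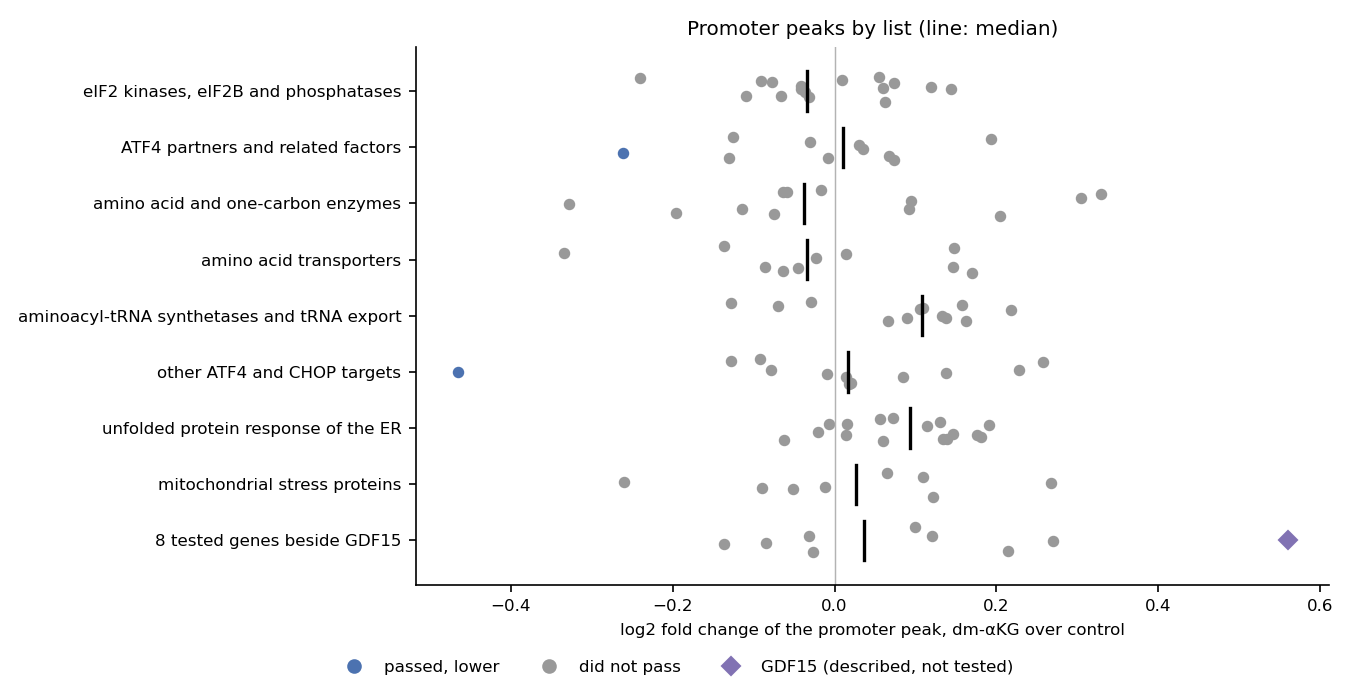
Log2 fold change (dm-αKG over control) of the promoter peak of each of 96 pathway genes in 8 lists and of the 8 tested genes beside GDF15, with the median of each row as a line. PCK2 (-0.47) and TFEB (-0.26) are the 2 that passed, and GDF15 (0.56), shown as a diamond and not tested, lies right of all other points.

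The promoter pattern over the 6 libraries most like that of GDF15 was searched among 14541 other promoter peaks, as the distance between log2 values centred on each peak's mean. The nearest were TRIM8 (distance 0.09 log2 units), STK16, whose peak is shared with GLB1L (0.11), RILP (0.13), YWHAH (0.13) and SLC46A1 (0.14). At TRIM8 counts were 635, 645 and 678 in control and 939, 965 and 997 with dm-αKG (log2 fold change 0.57).

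C/EBP-ATF words occurred in 12 of the 207 peaks (5.80%), against 2.43% of all peaks and 0.825% of promoter peaks. Genes of the list, such as ASNS and TRIB3, are known ATF4 targets, so the share describes the list and is not a result of the treatment. Of the 12, 5 lay at starts of the genes themselves. Those 5 peaks were ASNS -130, CHAC1 -175, DDIT4 -970, TRIB3 +1300 and PHGDH +854. The log2 fold changes there lay between -0.29 and -0.03, and none of the 5 passed. At the remaining peaks with the word they went both ways, from -0.47 (TRIB3 -8810) to 0.86 (GDF15 -5988, a weak peak). In the RefSeq promoters (GRCh38.p14, 250 bases before to 50 after each start), which held all 10 genes, the word was found at -68 in ASNS, -209 in CHAC1 and -54 in FGF21, and in 1270 of 35116 promoters in all. AP-1 words were found in 7 of the 207 peaks (3.38%, against 6.33% of all peaks), at log2 fold changes from -0.51 (DDIT4 -25330) to 1.03 (GDF15 -11598). The 2 peaks with p53 words were GDF15 -12151 (0.60) and TRIB3 -20533 (-0.46). NRF2 words lay in 2 peaks, GDF15 -11598 and ATF4 +2377 (0.23, did not pass). CRE words lay in 2 (0.966%, against 0.471% of all peaks), FGF21 +27092 (0.66) and -8552 (0.16, did not pass). The ER stress element (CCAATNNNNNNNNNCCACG) was found in 0.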

How the data were processed

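ATAC-seq libraries of H9 nES cells, 3 controls and 3 exposed to dm-αKG (4 mM, 24 h), were grouped by the treatment in the labels. Per the study's methods and the submitters' processing notes, reads were demultiplexed (bcl2fastq 2.20.0.422), trimmed, aligned to hg38 with Bowtie 2 and filtered in the ENCODE pipeline, and MACS2 peaks reproducible between replicates were kept for each treatment. The authors cut each peak down to 200 bp at its summit, joined both lists (bedtools 2.28.0) and deposited raw counts of reads per merged peak and library, with no normalization. The authors also deposited 1 peak list per treatment, holding for each peak a score, a fold enrichment (ratio to background) and p- and q-values as −log10, of which only the positions were used, to record in which list a peak was found (at least 1 bp shared). How reads were shifted for the transposase is not given in the sources used here.

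The test of the counts was edgeR's (version 4.0.16, R 4.3.3, TMM, quasi-likelihood, treatment as the only term, all 171517 peaks, Benjamini-Hochberg adjustment). A peak passed at an adjusted p below 0.01. The standard error is the size of the log2 fold change divided by the square root of F. The study used DESeq2, which is an alternative here (1.42.0), as are limma-voom (3.58.1), 4 other scalings, a count minimum of 10, the replicate number as a block, other windows and thresholds, and leaving out each library. On simulated data with 100 peaks changed at each size, the fit recovered 93% at a log2 change of 1.5 and 97% at 2, with 0 false calls. A simulated peak counted only at an adjusted p below 0.01 and a fold change above 2. Smaller changes, and a pass by the adjusted p alone, were not simulated. The smallest p that an exact permutation of 3 and 3 libraries allows is 0.1. Libraries of a treatment differed by more than counting noise (chi-square per degree of freedom 1.80 to 2.16).

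Genes and starts are from GENCODE 44. A gene's promoter peak is its peak of highest mean count within 1 kb of a GENCODE start. Named peaks are the members' promoter peaks, the peaks that passed and, for each gene, the peak of largest change with a mean normalized count of at least 20. Of the pathway lists, genes whose promoter peak passed were named, as were the 5 genes most like GDF15. The other peaks of GDF15, those at the members' starts, and the other pathway and marker genes were chosen after their values were seen. The members, pathway lists, marker lists and tests were chosen with earlier results of these data known. Motifs were searched with Python 3.11.15.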

Additional observations from a re-analysis of the deposited data

How the results depend on the processing

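The median log2 fold change of all peaks moved by at most 0.017 under the other scalings. The count of risen peaks of the 9 tested genes (15) was 8 with DESeq2, 26 at an adjusted p below 0.05, 7 within 10 kb, 23 within 100 kb, 7 among peaks of both lists, and from 5 (dm-αKG replicate 1 left out) to 18 (dm-αKG replicate 3) when 1 library was left out, and 9 in the absence of dm-αKG replicate 2. The count of fallen peaks (16) was 28 at 0.05, 9 within 10 kb, 26 within 100 kb and from 10 (without dm-αKG replicate 1) to 17. Rises above 2-fold (1) were 0 with DESeq2, within 10 kb and among peaks of both lists, and 0 to 3 when 1 library was left out (0 without control replicate 2 or dm-αKG replicate 1, 3 without dm-αKG replicate 3). Falls above 2-fold (4) were 2 within 10 kb and 2 among peaks of both lists.

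Risen promoter peaks of the 8 tested genes (0) became 1 with limma-voom, total counts, upper quartile factors, loess offsets, an adjusted p below 0.05, the peak nearest the outermost coding start and the peak nearest the MANE start (chosen after seeing the data), and 0 to 1 when 1 library was left out (1 without control replicate 1 or dm-αKG replicate 3). Risen promoters of the 96 pathway genes (0) became 1 with limma-voom, total counts, upper quartile factors and loess offsets, 2 at 0.05, and 0 to 1 when 1 library was left out (1 without dm-αKG replicate 3). Fallen ones (2) became 1 with DESeq2, 4 at 0.05, and 1 to 2 when 1 library was left out (1 without control replicate 1 or 3 or dm-αKG replicate 1 or 2). When 1 library was left out, the ASNS -130 change (-0.027) ran from -0.079 to 0.032, positive in the absence of control replicate 3 (0.029) or dm-αKG replicate 1 (0.032). Within 10 kb the log2 ratio of summed counts was 0.61 at GDF15, 0.11 at DDIT3, -0.10 at TRIB3, -0.11 at CHAC1, 0.20 at SESN2 and -0.17 at PHGDH, where fewer peaks enter each sum. The cause of the other changes was not tested.

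With the replicate number as a block, 14 peaks rose and 17 fell. The numbers do not pair the libraries (correlation of same-numbered deviations between -0.0157 and 0.0134), and ATF4 -9545 and CHAC1 -24225 lost their call under the block. Of the 31 passed peaks, 11 kept their call under all 14 alternative fits, and PHGDH +16273 under the 13 that included it, since it is not among the peaks with at least 10 counts in every library. In 10 of the 207 peaks a library had under 10 counts.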
